A study of Homo sapiens with 18 samples.

Results

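The histone genes were followed in HK-2, a human kidney cell line derived from proximal tubule epithelium and immortalised with papillomavirus E6 and E7 genes. Rows of the bead array table were taken as members when the gene name began with HIST1H, HIST2H, HIST3H or HIST4H, or was H1F0, H1FX, H2AFV, H2AFX, H2AFY, H2AFZ, H3F3A or H3F3B. This gave 72 of the 38275 gene names on the Illumina HumanWG-6 array, read by 81 of its 48803 probes. Of these, 68 probes (64 names) belong to the replication-dependent clusters and 13 probes (8 names) to single genes outside them. The study used 18 flasks, with 1 array each, in 6 groups of 3 flasks. Untreated controls were kept for 48 h or for 18 h, C-peptide at 5 nM was given for 48 h or for 18 h, and TGF-b1 (transforming growth factor beta 1, TGF-beta1 in the text) at 2 ng/mL was given for 48 h without or with 5 nM C-peptide. All 6 groups shared the passage range of 18 to 30, 48 h in medium with 5 mM glucose, a night without serum and a common end of the incubations. The flasks are separate cultures of 1 cell line, so the spread between them is that between cultures, not between people.

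Histones are the proteins around which DNA is wound. An octamer of H2A, H2B, H3 and H4 makes the core of each nucleosome, and a linker histone, H1, binds where DNA enters and leaves it. Most of these proteins come from replication-dependent genes, which lie in clusters, lack introns and are transcribed mainly in S phase, when new DNA needs packing. Their messages usually end in a stem-loop in place of a poly(A) tail. The genes grouped here as replication-independent encode variants such as H2A.X, H2A.Z, macroH2A and H3.3. Most give polyadenylated messages through the whole cell cycle, but this need not hold for every H2AFX message. In cultured tubule cells TGF-beta1 is a standard stimulus for loss of the epithelial phenotype, and C-peptide is the fragment released when proinsulin is cut.

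Promoter sequences were available from RefSeq (GRCh38.p14) for 61 of the 72 genes, as windows from 250 bases before to 50 bases after the gene start. Short motifs known from histone promoters were searched on both strands. The letters TATAAA stood in 36 of the 54 replication-dependent windows (66.7%), against 11.5% of all 35116 windows of the table. CCAAT stood in 83.3% of the replication-dependent windows and in 34.6% of all windows. The octamer ATTTGCAT stood in 37% and in 1.77%, and TTTGGCGC, a form of the E2F site, in 0 of 54 and in 0.652%. The classes differed in these letters, since CCAAT was present in each of the H1, H2A, H2B and H3 windows (6, 14, 13 and 9) and in 3 of 12 H4 windows, and the octamer in 10 of 14 H2A windows, 9 of 13 H2B windows, 1 of 9 H3 windows and 0 of 12 H4 windows. Of the 7 replication-independent windows, 4 held TATAAA, 5 held CCAAT and 1 held the octamer. The 16 replication-dependent genes with a testable probe and the 38 without one had similar shares of TATAAA (68.8% and 65.8%) and CCAAT (81.2% and 84.2%). Their shares of the octamer lay further apart, at 43.8% (7 of 16) and 34.2% (13 of 38). These matches describe letters in a window, not bound sites.

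The promoters of 8 genes are printed because they span what the arrays showed: a linker histone, an H2B and an H2A gene and the variants H2A.X and H2A.Z that rose with TGF-beta1, the H2A gene with the largest fall, an H4 gene that fell, and the abundant H3.3 gene that was not called without C-peptide. Each is the stretch from 150 bases before the gene start to the base before it, 5′ to 3′ on the gene's strand, with TATAAA and CCAAT (or ATTGG, its reverse complement) in capitals. HIST1H1C (H1-2) is at chr6:26056471-26056620 on the minus strand, HIST1H2BD (H2BC5) at chr6:26157971-26158120 on the plus strand and HIST2H2AC (H2AC20) at chr1:149886768-149886917 on the plus strand. HIST3H2A (H2AC25) is at chr1:228457874-228458023 and HIST1H4K (H4C12) at chr6:27831561-27831710, both on the minus strand. H2AFX (H2AX) is at chr11:119095466-119095615 and H2AFZ (H2AZ1) at chr4:99950276-99950425, both on the minus strand, and H3F3A (H3-3A) at chr1:226061681-226061830 on the plus strand.
HIST1H1C: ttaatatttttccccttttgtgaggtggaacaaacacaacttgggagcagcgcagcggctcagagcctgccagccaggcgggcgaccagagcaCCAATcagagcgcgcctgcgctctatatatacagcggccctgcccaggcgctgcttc
HIST1H2BD: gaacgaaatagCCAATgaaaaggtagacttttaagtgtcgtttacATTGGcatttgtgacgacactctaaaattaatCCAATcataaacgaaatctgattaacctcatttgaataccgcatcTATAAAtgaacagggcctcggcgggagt
HIST2H2AC: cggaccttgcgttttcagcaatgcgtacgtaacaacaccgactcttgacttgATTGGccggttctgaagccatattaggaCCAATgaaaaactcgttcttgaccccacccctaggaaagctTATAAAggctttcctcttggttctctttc
HIST1H4K: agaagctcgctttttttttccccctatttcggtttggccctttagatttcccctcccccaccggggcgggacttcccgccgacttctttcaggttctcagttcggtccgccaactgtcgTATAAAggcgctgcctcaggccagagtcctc
HIST3H2A: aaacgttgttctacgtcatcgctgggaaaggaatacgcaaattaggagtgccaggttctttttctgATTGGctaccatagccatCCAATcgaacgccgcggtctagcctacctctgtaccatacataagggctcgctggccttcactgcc
H2AFX: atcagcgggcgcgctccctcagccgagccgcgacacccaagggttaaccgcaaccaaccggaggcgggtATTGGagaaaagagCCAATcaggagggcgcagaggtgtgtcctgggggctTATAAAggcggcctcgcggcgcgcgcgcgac
H2AFZ: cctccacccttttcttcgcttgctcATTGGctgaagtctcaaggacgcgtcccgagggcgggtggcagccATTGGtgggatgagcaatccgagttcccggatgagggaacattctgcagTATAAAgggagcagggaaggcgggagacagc
H3F3A: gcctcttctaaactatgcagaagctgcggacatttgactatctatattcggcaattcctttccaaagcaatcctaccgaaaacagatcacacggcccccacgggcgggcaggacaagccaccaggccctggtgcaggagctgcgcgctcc
The printed stretches of HIST1H2BD, HIST2H2AC, H2AFX and H2AFZ held both motifs, those of HIST1H1C and HIST3H2A held CCAAT without TATAAA, that of HIST1H4K held TATAAA without CCAAT, and that of H3F3A held neither, although the longer searched window of H3F3A held CCAAT.

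The arrays read 14580 to 15818 probes each as detected at a detection p under 0.01, and their mean signals ran from 215.9 to 343.7 intensity units. Between 21 and 69 beads stood behind each value of a histone probe. The median SD between the 3 arrays of a group, over the 33 histone probes tested, was 0.10 to 0.13 on the log2 scale in 5 groups and 0.23 with C-peptide at 18 h, where replicate 3 stood apart with low values such as 9.05 for H1F0 against 9.94 and 10.06 on its replicates. The labels name no array sets. The array numbers are consecutive, and taking them 6 at a time gives 3 sets, which are an assumption made here. The 48 h controls shared a set with TGF-beta1, C-peptide at 48 h shared one with both agents, and the 18 h groups shared the third, so the TGF-beta1 comparisons and the 18 h comparison lie within a set. Comparisons of C-peptide at 48 h with its control, of both agents with TGF-beta1 and of the times run between sets, where set and treatment cannot be told apart. Of the 14 epithelial and proximal tubule markers, 8 were detected on every array, while ANPEP, AQP1, CUBN, LRP2 and PAX2 were detected on none.

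Most replication-dependent histone probes were detected on no array, but the share of them that could be tested was close to that of all probes. Of the 81 probes, 33 (27 genes) were detected on 3 or more arrays and were tested, 24 on every array, 45 on no array and 3 on 1 or 2 arrays. Detection differed by class: 12 of the 13 replication-independent probes could be tested, against 21 of the 68 replication-dependent probes (30.9%), and 33.4% of all probes of the array passed the same filter. The linker class had 1 probe of 6 (HIST1H1C), H2A 6 of 17, H2B 8 of 20, H3 2 of 11 and H4 4 of 14. None of the 11 H3 probes of the clusters was detected on every array. The only replication-independent probe that was not detected was 1 of the 4 for H2AFY (ILMN_2275437). The names with no testable probe were the linker genes HIST1H1A, B, D, E and T, the H2A genes HIST1H2AA, AB, AD, AE, AG, AH, AI, AJ and AK and HIST2H2AB, the H2B genes HIST1H2BA, BB, BC, BE, BI, BL, BM, BN and BO, HIST2H2BF and HIST3H2BB, the H3 genes HIST1H3B, D, F, G, H, I and J, HIST2H3C and HIST3H3, and the H4 genes HIST1H4A, D, E, F, G, H, I, J and L and HIST4H4. How the RNA was primed for labelling is not given in the sources used here, so a low signal does not separate a rare message from one that was poorly labelled. The number of histone probes detected per array was 25 to 28 in the 48 h controls, 29 to 30 with TGF-beta1, 25 to 30 with C-peptide for 48 h, 31 on every array with both agents, 26 to 27 in the 18 h controls and 26 to 31 with C-peptide for 18 h. Genes of the same class can be almost identical in sequence, and probe sequences were not used here, so a probe named for HIST1H2BF, HIST1H2BG, HIST2H2AA3 or another cluster gene may also read its copies.

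**Figure D1:**
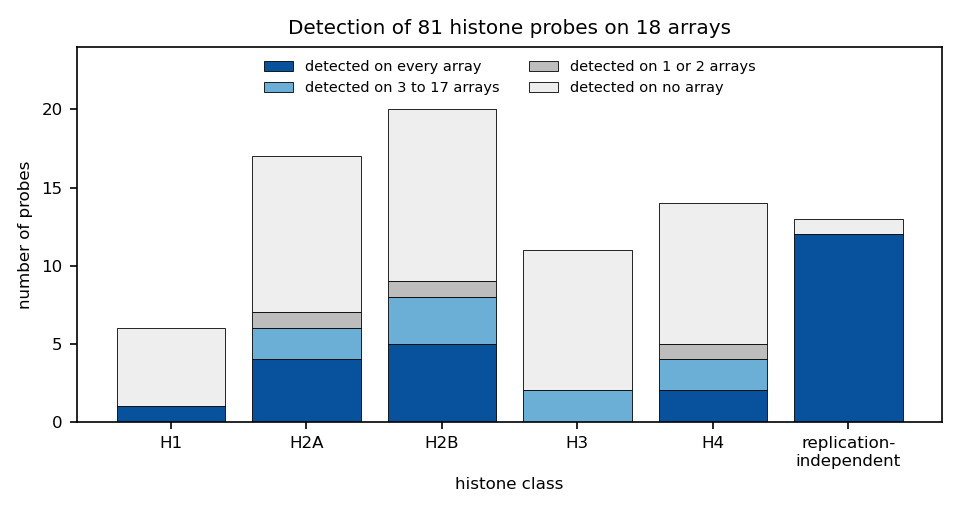
Number of histone probes (vertical axis) in each histone class (horizontal axis), split by how many of the 18 arrays read them as detected. The replication-independent class stands out with 12 of 13 probes detected on every array, whereas H3 has none and most bars of the clustered classes are probes detected on no array.

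TGF-beta1 for 48 h was set against the 48 h controls to ask whether the growth factor changes histone messages. Rises outnumbered falls among the histone probes, most clearly in H2B and among the variants, while H2A and H4 held members that rose and members that fell, and the H2A gene HIST3H2A had the largest fall. With limma, and Benjamini-Hochberg adjustment over all 16322 probes, 18 of the 33 tested histone probes rose and 3 fell at an adjusted p under 0.05, where 22.6% of all tested probes rose and 21.8% fell. A probe can pass the detection filter through the group where it is high, so the 24 histone probes detected on every array are the fairer count: 13 of them rose (54.2%) and 2 fell (8.33%), where 22.9% of the 13438 probes detected on every array rose and 21.7% fell. Their median log2 change was 0.37, against 0.01 for all such probes. Replication-dependent and replication-independent probes had similar medians, 0.38 over 12 probes (6 rose, 2 fell, 4 were not called) and 0.37 over 12 probes (7 rose, none fell, 5 were not called). In bulk RNA a change in the share of cells in a state and a change in the message per cell cannot be told apart.

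Among linker histones, HIST1H1C encodes H1.2, the one clustered linker histone that was detected. Its normalized log2 intensity was 6.05, 5.89 and 5.62 on the 48 h control arrays, 7.02, 6.80 and 6.94 with TGF-beta1, 6.01, 6.32 and 6.20 with C-peptide, 7.15, 7.24 and 6.78 with both agents, 6.41, 6.10 and 6.15 in the 18 h controls and 5.61, 6.21 and 6.27 with C-peptide for 18 h. Every array that had received TGF-beta1 was above every array that had not. The log2 change with TGF-beta1 was 1.07 ± 0.16 (SE, n = 3 and 3 arrays; limma adjusted p = 2.16e-05). H1F0 encodes H1.0, the linker variant that accumulates in differentiated and non-dividing cells. It read 9.93, 9.81 and 9.94 on the control arrays, 10.52, 10.76 and 10.71 with TGF-beta1, 9.86, 9.96 and 9.87 with C-peptide and 10.40, 10.55 and 10.61 with both agents. The TGF-beta1 arrays again lay above the others at 48 h without overlap, and the change was 0.77 ± 0.16 (SE; limma adjusted p = 0.000583). H1FX, another linker variant, moved by 0.44 ± 0.17 (limma adjusted p = 0.0402), but its groups overlapped and the call was lost without TGF-beta1 replicate 2 (0.30, adjusted p = 0.204) or replicate 3 (adjusted p = 0.0789) and without control replicate 1 (adjusted p = 0.0811) or 2 (0.33, adjusted p = 0.174).

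The H2A genes were divided. HIST3H2A lies apart from the large clusters and encodes a core H2A. Its log2 intensity was 7.74, 7.50 and 7.67 in the 48 h controls, 6.56, 6.12 and 6.27 with TGF-beta1, 7.91, 8.02 and 7.79 with C-peptide, 6.53, 6.74 and 6.59 with both agents, 8.12, 7.97 and 7.86 in the 18 h controls and 7.73, 7.86 and 6.95 with C-peptide for 18 h. All 6 arrays with TGF-beta1 were below all 12 others, the nearest being replicate 3 of C-peptide at 18 h. The log2 change was -1.32 ± 0.17 (SE; limma adjusted p = 2.13e-06). The next gene on the chromosome in RefSeq, HIST3H2BB, was not detected on any array. HIST2H2AC, an H2A gene of the second cluster, rose by 0.47 ± 0.14 (limma adjusted p = 0.00783), from 6.88, 6.75 and 6.89 to 7.41, 7.09 and 7.44, without overlap. HIST1H2AM was not detected on any control array and was detected on 2 of 3 TGF-beta1 arrays, with a mean at least 1.15-fold higher (limma adjusted p = 0.000138). Such a bound sets the mean of the bright group against the dimmest signal that still counted as detected on each dim array. Where the probe's own signal was higher, that signal was used. For HIST1H2AM the bright mean includes an array on which it was not detected. HIST1H2AM, HIST1H2BG, HIST1H3A, HIST1H3C and HIST1H4B passed the detection filter only through arrays with TGF-beta1. HIST2H2BE and HIST2H4A passed it only through arrays without TGF-beta1. The tests of all these genes are therefore not independent of that filter. The HIST2H2AA3 probes disagreed: ILMN_2144426 fell by 0.44 (limma adjusted p = 0.0145), a call lost without TGF-beta1 replicate 2 (-0.33, adjusted p = 0.0867) or control replicate 1 (-0.36, adjusted p = 0.0760), while ILMN_1659047 read 0.18 higher and was not called. HIST1H2AC changed by 0.07 and was not called.

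Of the 8 tested H2B probes, 5 rose, none fell and 3 were not called, and of the 5 detected on every array 3 rose. HIST1H2BD was measured by 2 probes, which moved together. On ILMN_1758623 the log2 intensity was 6.93, 6.60 and 6.83 in the 48 h controls, 7.61, 7.51 and 7.79 with TGF-beta1, 6.83, 6.88 and 6.82 with C-peptide, 7.79, 7.89 and 7.61 with both agents, 7.02, 7.01 and 6.84 in the 18 h controls and 6.56, 7.03 and 7.09 with C-peptide for 18 h. All 6 arrays with TGF-beta1 were above all 12 others, and the change was 0.85 ± 0.13 (SE; limma adjusted p = 1.78e-05). The other HIST1H2BD probe rose by 0.69 ± 0.12 (limma adjusted p = 8.91e-05). HIST1H2BH read 5.83, 6.22 and 5.84 in the 48 h controls and 6.70, 6.57 and 6.72 with TGF-beta1. That rise of 0.70 ± 0.19 (limma adjusted p = 0.00482) had no overlap between these groups. Arrays without TGF-beta1 did reach the same level under C-peptide at 18 h, where replicates 1 to 3 read 6.64, 5.82 and 6.89. The 18 h controls, at 6.42, 6.12 and 6.10, stayed below the TGF-beta1 arrays. HIST1H2BF, a dim probe detected on 2 of the 3 control arrays and on all 3 with TGF-beta1, rose by 0.69 ± 0.14 (limma adjusted p = 0.000555). HIST1H2BG was detected on no control array and on all 3 with TGF-beta1, and was at least 1.49-fold higher (limma adjusted p = 3.42e-05). The probes not called were HIST1H2BK (0.29, limma adjusted p = 0.0643), HIST1H2BJ (0.17) and HIST2H2BE (limma adjusted p = 0.0601). HIST2H2BE was detected on 1 control array and on no TGF-beta1 array, and read lower without overlap. By limma it was called lower with median scaling (adjusted p = 0.0331), the authors' values (0.0480), only the groups compared (0.0120) and array weights (0.00505). The other 11 of its 15 alternatives did not call it. Since HIST2H2BE passed the detection filter only through arrays without TGF-beta1, these tests are not independent of that filter. Some cluster genes, HIST1H2BD and HIST2H2BE among them, are known to give polyadenylated messages as well as the usual stem-loop form.

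Of the clustered H3 genes, HIST1H3C was detected on no 48 h control array and on all 3 TGF-beta1 arrays, and was at least 1.21-fold higher (limma adjusted p = 0.000528). It neighbours HIST1H1C in RefSeq. HIST1H3A was undetected in both groups. HIST1H4C is a core H4 gene of the main cluster. Its log2 intensity was 13.31, 13.37 and 13.29 in the 48 h controls, 14.01, 14.01 and 13.88 with TGF-beta1, 13.11, 13.24 and 13.20 with C-peptide, 13.88, 13.77 and 13.79 with both agents, 13.37, 13.10 and 13.28 in the 18 h controls and 13.33, 13.22 and 13.22 with C-peptide for 18 h. All 6 TGF-beta1 arrays were above all 12 others. The change was 0.64 ± 0.07 (SE; limma adjusted p = 2.21e-07), the smallest adjusted p of the histone probes in this comparison. HIST1H4K went the other way, from 7.56, 7.38 and 7.40 in the controls to 7.01, 6.81 and 7.22 with TGF-beta1. That fall of 0.44 (limma adjusted p = 0.00697) was not called without TGF-beta1 replicate 2 (-0.34, adjusted p = 0.0514). HIST1H4B passed the test (limma adjusted p = 0.00678) but was detected on 1 of the 3 TGF-beta1 arrays and on no control array, so no fold is given, and HIST2H4A, undetected on the TGF-beta1 arrays, was not called. The falls of HIST1H4K and HIST2H2AA3 are under the size set for naming and were picked out after their values were seen.

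The replication-independent variants were led by H2AFX, which encodes H2A.X, the variant phosphorylated around DNA breaks. Its probe ILMN_1785756 read 10.05, 9.94 and 10.33 in the 48 h controls, 10.58, 11.04 and 11.03 with TGF-beta1, 10.18, 10.25 and 9.90 with C-peptide, 10.37, 10.46 and 11.06 with both agents, 9.71, 9.85 and 9.93 in the 18 h controls and 9.98, 9.97 and 9.86 with C-peptide for 18 h. The arrays with TGF-beta1 were the 6 highest, and the change was 0.77 ± 0.15 (SE; limma adjusted p = 0.000321). The dimmer H2AFX probe, ILMN_2200331, rose by 1.16 ± 0.18 (limma adjusted p = 2.55e-05), from 7.40, 6.93 and 7.61 to 8.19, 8.52 and 8.70. H2AFZ encodes H2A.Z, found at promoters and other regulatory DNA. It read 13.62, 13.57 and 13.52 in the controls and 14.03, 14.04 and 14.01 with TGF-beta1, so a modest change of 0.45 ± 0.07 stood well clear of the spread (limma adjusted p = 2.96e-05). H2AFV, a second H2A.Z gene, rose by 0.49 ± 0.11 (limma adjusted p = 0.000991), from 7.09, 7.06 and 7.21 to 7.82, 7.42 and 7.59.

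The genes of H3.3, the H3 variant laid down outside replication, and of macroH2A, a large H2A variant of silent chromatin, gave 1 call among 6 probes. H3F3A is among the brightest features of the arrays, with its probes ranked between 15 and 100 on every array. Its log2 intensity was 14.42, 14.46 and 14.38 on ILMN_1656082 in the controls and 14.45, 14.41 and 14.37 with TGF-beta1. The groups overlapped, and the changes of the 2 H3F3A probes were -0.01 and 0.06. H3F3B passed the test at 0.30 ± 0.12 (limma adjusted p = 0.0456), from 9.54, 9.38 and 9.47 to 9.67, 9.85 and 9.77, but leaving out any 1 of 5 of the 6 arrays lost the call, with an adjusted p of 0.142 without TGF-beta1 replicate 2. The detected H2AFY probes were not called, with changes of 0.22, 0.12 and -0.10.

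**Figure D2:**
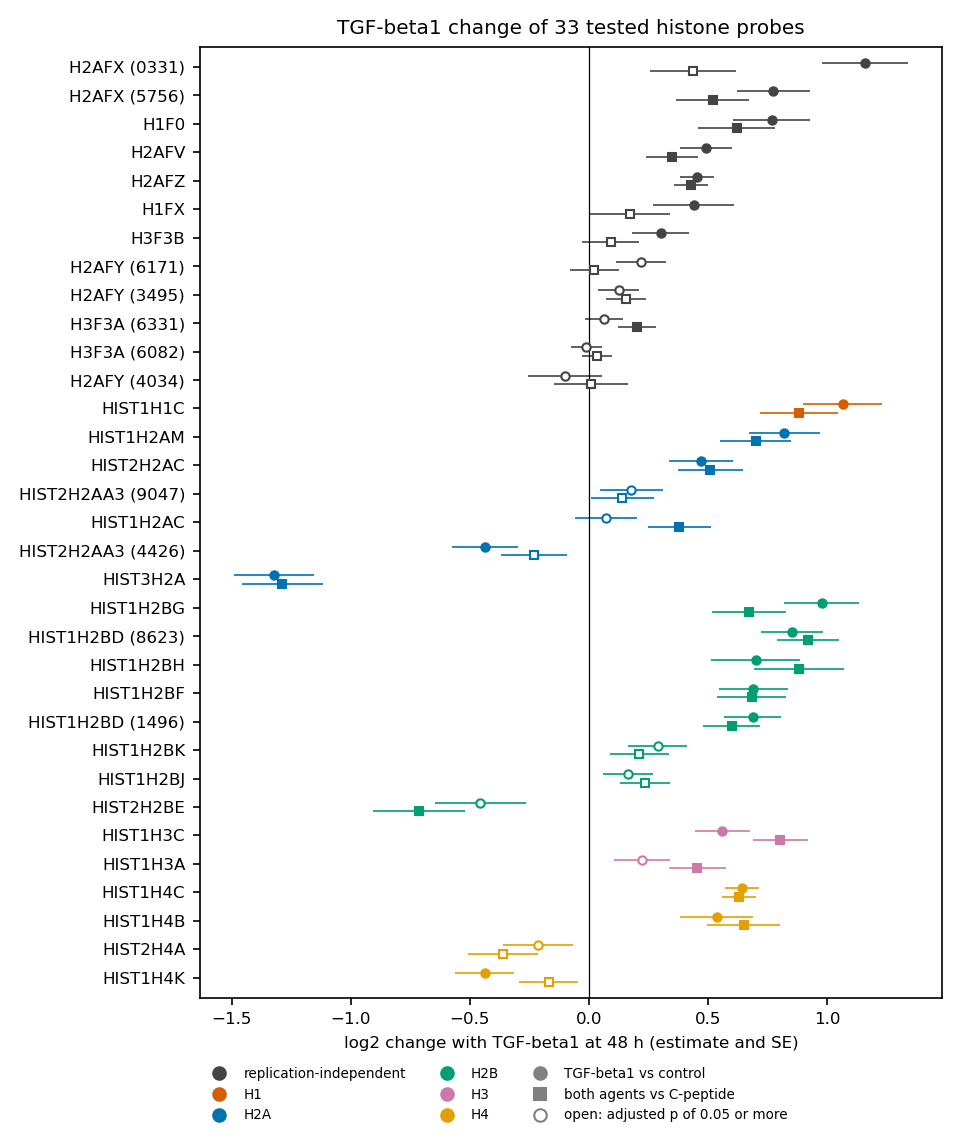
Log2 change with TGF-beta1 at 48 h (horizontal axis, estimate with SE bars) for each of the 33 tested histone probes (vertical axis, with the last 4 digits of the probe where a gene has several), without C-peptide (circles) and with it (squares). Filled marks passed an adjusted p of 0.05. Most marks lie to the right of 0, HIST3H2A lies at -1.32 and -1.29, and the marks of a probe lie furthest apart for H2AFX ILMN_2200331, at 1.16 and 0.44.

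The same question was asked in cells that also received C-peptide, with both agents set against C-peptide alone. These 6 arrays are other flasks on another array set and share none with the first comparison. Rises again outnumbered falls among the histone probes, and HIST3H2A was again lower. With limma, 18 of the 33 tested histone probes rose and 2 fell, where 21.3% of all tested probes rose and 21% fell. Of the 24 detected on every array, 12 rose and 1 fell, where 21.5% of all such probes rose and 20.8% fell, and their median log2 change was 0.29 against 0.00 for all such probes. The medians by type were 0.45 for 12 replication-dependent probes (7 rose, 1 fell, 4 were not called) and 0.19 for 12 replication-independent probes (5 rose, 7 were not called). Of these 24 probes, 10 (41.7%) rose in both comparisons, where 17.6% of all probes detected on every array did so, and 1 fell in both, where 17% did.

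Member by member, 15 of the 33 rose in both comparisons and 1, HIST3H2A, fell in both, where 17.4% and 17.1% of all tested probes did. Among the members that rose in both, HIST1H2AM, HIST1H2BG, HIST1H3C and HIST1H4B passed the detection filter only through arrays with TGF-beta1. With C-peptide present, HIST3H2A changed by -1.29 (limma adjusted p = 3.22e-06), HIST1H4C by 0.63 (adjusted p = 3.04e-07), HIST1H2BD by 0.92 on ILMN_1758623 (adjusted p = 7.56e-06) and HIST1H1C by 0.88 (adjusted p = 0.000186). The arrays of both agents lay beyond all C-peptide arrays for each of these 4 probes. HIST1H2BH read 6.23, 6.22 and 6.24 with C-peptide and 7.22, 7.24 and 6.87 with both agents, a rise of 0.88 (limma adjusted p = 0.000731). HIST1H3C was detected on no array with C-peptide alone and on all 3 with both agents, and was at least 1.29-fold higher (limma adjusted p = 1.05e-05), with HIST1H2BG at least 1.21-fold, HIST1H2AM at least 1.14-fold and HIST1H4B at least 1.098-fold higher. HIST2H2AC rose by 0.51 (limma adjusted p = 0.00464). Its neighbour in RefSeq, HIST2H2BE, was detected on 2 C-peptide arrays and on none with both agents, and was at least 1.07-fold lower (limma adjusted p = 0.00507). HIST2H2BE passed the detection filter only through arrays without TGF-beta1, so its fall is not independent of that filter.

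The variants with C-peptide present gave H2AFZ at 0.43 (limma adjusted p = 6.10e-05) and H1F0 at 0.62 (adjusted p = 0.00375) as calls that held on leaving out any 1 array. H2AFX on ILMN_1785756 rose by 0.52 (limma adjusted p = 0.00907), but not without replicate 3 of both agents (0.31, adjusted p = 0.0898), the array that read 11.06, nor without C-peptide replicate 3 (adjusted p = 0.0571). H2AFV rose by 0.35 (limma adjusted p = 0.0140), and the call was lost without replicate 1 of both agents (adjusted p = 0.0707) or C-peptide replicate 2 (adjusted p = 0.0601). The rises called only in the absence of C-peptide were those of H1FX, H3F3B and H2AFX on ILMN_2200331. Those made only with it present were HIST1H2AC (0.38, limma adjusted p = 0.0248), HIST1H3A (0.45, adjusted p = 0.00410, detected on 1 C-peptide array and on all 3 with both agents) and H3F3A on ILMN_2106331 (0.20, adjusted p = 0.0443). The HIST1H2AC call was lost without replicate 1 or 2 of both agents or C-peptide replicate 1 (highest adjusted p = 0.104), and that of H3F3A without 4 of the 6 arrays (highest adjusted p = 0.176). A call in one comparison and not in the other does not show a difference, which was tested as the interaction of the agents. In that test limma called 0 of the 16322 probes (0%) and 0 of the 33 histone probes, of which 1 had an unadjusted p under 0.05. That probe was H2AFX ILMN_2200331, whose TGF-beta1 change was smaller by 0.72 on the log2 scale with C-peptide (interaction -0.72 ± 0.26 SE; limma adjusted p = 0.999). The median SE of an interaction over the histone probes was 0.19.

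**Figure D3:**
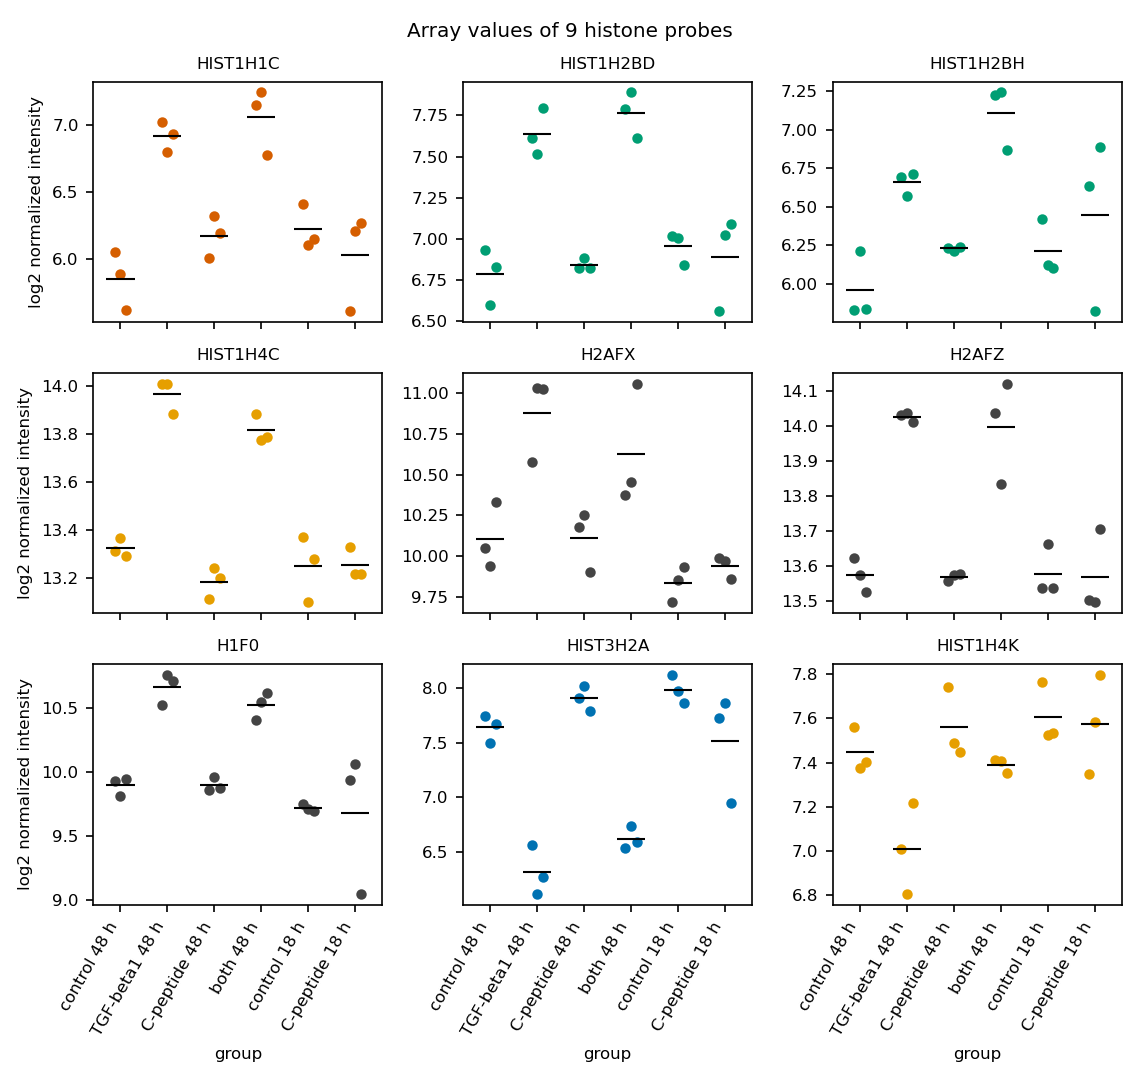
Normalized log2 intensity (vertical axes, scaled per panel and not starting at 0) of 9 histone probes on all 18 arrays, by group (horizontal axis). Points are single arrays and bars are group means. Both TGF-beta1 groups lie apart from the other 4 groups in the panels of HIST1H1C, HIST1H2BD, HIST1H4C, H2AFX, H2AFZ and H1F0 (above) and HIST3H2A (below), and HIST1H4K is lowest with TGF-beta1 alone.

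C-peptide alone moved few histone messages past the test, and the sizes were small. At 48 h limma called 1 of the 33 histone probes, where it called 6.84% of all probes: H2AFY on ILMN_1746171, which read 9.28, 9.24 and 9.18 in the controls and 9.65, 9.59 and 9.51 with C-peptide. The groups did not overlap and the change was 0.35 ± 0.10 (SE; limma adjusted p = 0.0473). The other detected H2AFY probes read in the opposite direction and were not called, at -0.05 on ILMN_1674034 and -0.10 on ILMN_2373495. Without C-peptide replicate 1 or 2, or without any 1 control, the adjusted p was 0.0872 to 0.204, and the call holds only without C-peptide replicate 3. The 18 h controls, on another array set, read 9.71, 9.55 and 9.38 on this probe and overlapped the C-peptide arrays at 48 h. Over the 24 probes detected on every array the log2 changes with C-peptide at 48 h ran from -0.14 to 0.43, with a median of 0.02.

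At 18 h limma called 0 of the 33 histone probes, with 4 at an unadjusted p under 0.05, and 2.46% of all probes. Over the 24 probes detected on every array the changes ran from -0.47, for HIST3H2A, to 0.32, for H2AFV, and the lowest adjusted p was 0.0885, for H2AFV. Without replicate 3 of C-peptide, the array that stood apart, 0 histone probes and 0.619% of all probes were called. Adding C-peptide to TGF-beta1 also gave 0 histone calls by limma, with 5 at an unadjusted p under 0.05, where 3.16% of all probes were called. Over the same 24 probes the changes ran from -0.29 to 0.45, and the lowest adjusted p was 0.0725, for HIST1H2BJ, which read 8.17, 7.86 and 8.07 with TGF-beta1 and 8.34, 8.36 and 8.45 with both agents. The fit to those 6 arrays alone called 3 histone probes and 8.43% of all probes, and median scaling called 2 and 5.32%.

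**Figure D4:**
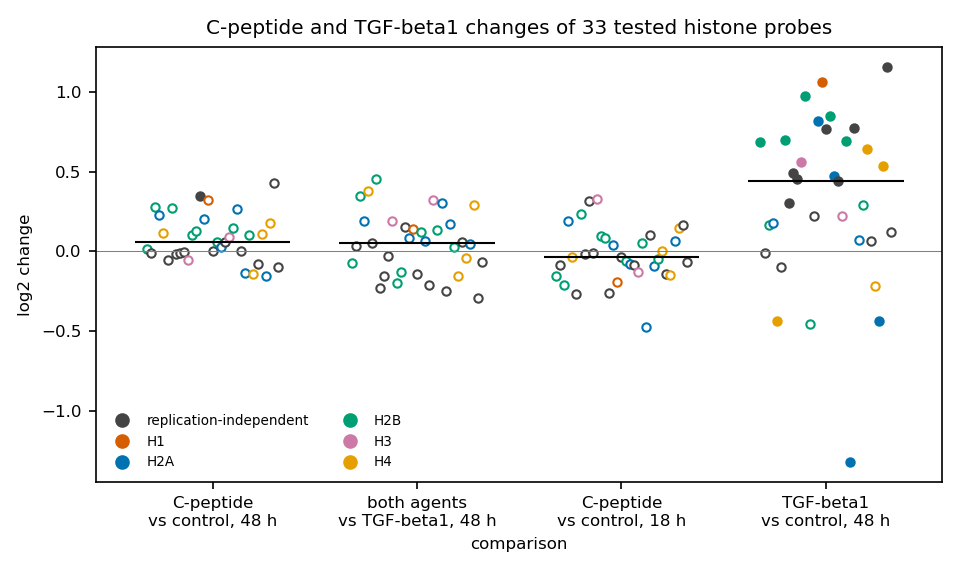
Log2 changes (vertical axis) of the 33 tested histone probes in the C-peptide comparisons and, for scale, with TGF-beta1 (horizontal axis). Each point is a probe coloured by class, filled points passed an adjusted p of 0.05, and bars are medians. The C-peptide points centre near 0, between -0.47 and 0.45, and 1 of them is filled.

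The change with C-peptide at 48 h was also set against that at 18 h. Here limma called 2 of the 33 histone probes, both higher, where 4.78% of all probes were called higher and 9.39% in either direction. H2AFY on ILMN_1746171 differed by 0.61 ± 0.15 (SE; limma adjusted p = 0.0193), with changes of 0.35 at 48 h and -0.26 at 18 h. HIST1H2BJ differed by 0.49 ± 0.15 (limma adjusted p = 0.0421), reading 7.93, 7.85 and 7.82 in the 48 h controls, 8.29, 8.12 and 8.04 with C-peptide for 48 h, 8.21, 8.09 and 7.88 in the 18 h controls and 7.88, 7.75 and 7.92 with C-peptide for 18 h. Without the array that stood apart the values were 0.60 (adjusted p = 0.0148) and 0.53 (adjusted p = 0.0285). The H2AFY call was lost without C-peptide replicate 1 at 48 h, control replicate 3 at 48 h or control replicate 1 at 18 h (highest adjusted p = 0.0693), and HIST1H2BJ lost its call without 8 of the 12 arrays in turn (highest adjusted p = 0.129). The untreated controls at 48 h and 18 h, which also lie on different sets, differed in 0 histone probes by limma (3 at an unadjusted p under 0.05) and in 0.00613% of all probes.

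Other genes of histone supply were followed through lists, with 1 probe for each gene, that with the highest mean. Of 10 histone genes whose names lie outside the rule, 4 were measured, and with TGF-beta1 3 rose and 1 fell, with the same directions called when C-peptide was present. CENPA, the H3 variant of centromeres, rose by 1.43 (limma adjusted p = 1.40e-09), H2BFS by 0.56 and H2AFJ by 0.47, and H2AFY2, the second macroH2A gene, fell by 0.33 (adjusted p = 0.000651). Of 14 measured genes (of 15) for transcription and processing of histone messages, 3 rose, 1 fell and 10 were not called, so that the share that rose was close to the 22.6% of all tested probes and the share that fell was below the 21.8%. CSTF2, a cleavage stimulation subunit, rose by 0.47 (limma adjusted p = 0.00133), RDBP by 0.38 and ARS2 by 0.27, and CPSF3, the nuclease that cuts histone messages, fell by 0.20 (adjusted p = 0.0185). SLBP, which binds the stem-loop, and NPAT, a coactivator of histone genes, were not called, and CASP8AP2 was detected on no array. Of 19 measured histone chaperones (of 22), 4 rose, 3 fell and 12 were not called, shares close to those same 22.6% and 21.8%. ASF1A and ASF1B, which hand H3 and H4 to assembly factors, rose by 0.57 (limma adjusted p = 4.98e-05) and 0.52 (adjusted p = 0.0174), and CHAF1A and DAXX by 0.41 and 0.35. CABIN1 fell by 0.55, NASP by 0.42 and NAP1L1 by 0.40.

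In the list of S phase and proliferation genes, 24 of 25 were measured, and with TGF-beta1 12 rose, 4 fell and 8 were not called, where 22.6% of all tested probes rose and 21.8% fell, with a median log2 change of 0.25 against 0.01 for all probes. The largest rises were in CCNA2 (1.38, limma adjusted p = 2.28e-11), CDC2 (1.25, adjusted p = 9.68e-10), MKI67 (1.19), RRM2 (1.16) and CCNB1 (1.11), which are cyclins, their kinase, a marker of dividing cells and a nucleotide reductase subunit. The 4 that fell, named after their values were seen, were the helicase subunits MCM2 (-0.94, limma adjusted p = 0.000117), MCM5 (-0.58), MCM6 (-0.49) and MCM3 (-0.38). With C-peptide present 11 rose and 4 fell, where 21.3% and 21% of all tested probes did. With C-peptide alone at 48 h, where 5.15% of all tested probes rose and 1.69% fell, 4 genes of this list fell (CDC6, MCM4, POLA1 and MCM3, by 0.46, 0.44, 0.34 and 0.27) and PCNA rose by 0.25, and when it was added to TGF-beta1, where 1.01% of all probes fell, 5 fell (RRM2, POLA1, MCM4, RRM1 and MCM7, by 0.44, 0.43, 0.43, 0.38 and 0.35), across array sets in both cases. Their part in the histone values was not tested.

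Markers of cell type moved with TGF-beta1 beside the histone genes. Of 9 measured epithelial and proximal tubule genes, 5 fell and 1 rose, where 21.8% and 22.6% of all tested probes did so. CDH1, the epithelial cadherin, was detected on all 3 control arrays and 1 TGF-beta1 array and was at least 7.63-fold lower (limma adjusted p = 1.79e-11). Of 4 measured fibroblast genes, 2 rose and COL1A2 was detected on no array. PDGFRB, detected on all 3 TGF-beta1 arrays and no control array, was at least 1.497-fold higher, and DCN, detected on all 3 and on 1, was at least 1.48-fold higher. The summed intensity of the fibroblast list was 2438 to 2637 in the 48 h controls and 2540 to 2963 with TGF-beta1. The endothelial markers VWF and CDH5 were detected on no array, and the sum of that list was 34.9 to 43.7 and 34.3 to 40.6. PECAM1, also of that list, was detected on 2 TGF-beta1 arrays and no control array and was at least 1.17-fold higher (limma adjusted p = 0.00270), and at least 1.18-fold with C-peptide present (adjusted p = 0.0150). Of the leukocyte markers PTPRC and CD14 were detected on no array, while CSF1R, detected on all 3 TGF-beta1 arrays and no control array, was at least 3.82-fold higher and took the sum from 23.9 to 37.4 in the controls to 171.5 to 238.7 with TGF-beta1. The part of these markers in the histone result was not tested.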

How the data were processed

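The deposited table of unnormalized values holds mean bead intensity per probe and array, which GenomeStudio version 1.1.1 wrote without normalizing them per the file headers, and 23.4% to 28.1% of the values on an array are below 0. Detection was deposited as a fraction that equals 1 minus the p of detection, with the number of beads beside it. The authors' own normalized intensity, also deposited, was made by a method not given in the sources used here, and served as an alternative. GenomeStudio and BeadStudio are the tools in the submitters' processing notes.

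Arrays were grouped by sample title. The titles were used for TGF-beta1 replicates 2 and 3, whose descriptions carry another final number on the growth factor's name. The neqc function (limma 3.58.1, R 4.3.3) corrected the background and quantile normalized the intensities with an offset of 16, and 16322 probes detected at p under 0.01 on 3 or more of 18 arrays were kept. limma fitted 6 group means over all 18 arrays (12 residual degrees of freedom, intensity trend), with Benjamini-Hochberg adjustment over all probes in each comparison and calls at adjusted p under 0.05. No arrays were identical (highest correlation 0.996). The number of arrays limits the precision. Scripts were tested on simulated data.

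The histone members, the other gene lists and the tests were chosen with earlier results of these data known. Named with values were probes called with TGF-beta1 at a log2 change of 0.5 or more, every replication-independent gene, the histone probes called in the other comparisons, and up to 5 called genes of each list. Gene names are those of the array, and current symbols came from RefSeq for 67 of 72 names. Alternatives changed the normalization, offset, filter, probes per gene, arrays in the fit, array weights, intensity trend and replicate block, and left out each array in turn. The filter on probes detected on every array was added after seeing the data.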

Additional observations from a re-analysis of the deposited data

Results flagged for a closer look

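The change with C-peptide differed between 48 h and 18 h for 2 histone probes, by the test of the difference itself. For H2AFY (ILMN_1746171, macroH2A) the difference was 0.61 on the log2 scale (SE 0.15, limma adjusted p = 0.0193), with a change of 0.35 at 48 h and -0.26 at 18 h. The other detected H2AFY probes were not called, and at 48 h they read in the opposite direction (-0.05 and -0.10). For HIST1H2BJ (ILMN_1658702, a core H2B) the difference was 0.49 (SE 0.15, limma adjusted p = 0.0421), with a change of 0.28 at 48 h. The C-peptide and control arrays at 48 h lie on different array sets, so treatment and set cannot be told apart in either value.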

How the results depend on the processing

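The counts of histone probes called with TGF-beta1 were 21 without and 20 with C-peptide. They ranged from 18 to 21 in both comparisons when 1 array was left out, and from 15 to 29 and from 13 to 26 under the other settings. The count of 13 came with probes detected on every array, which leaves fewer histone probes to test. Each TGF-beta1 fit restricted to the groups compared is also the fit within its array set, so set as a block was not run apart. Counts for C-peptide at 48 h moved from 1 to 0 with median scaling, 0 with 1 probe per gene, 0 without the intensity trend and 5 with array weights, and from 0 to 2 with 1 array left out. C-peptide at 18 h moved from 0 to 1 with array weights and 0 to 2 with 1 array left out. Both agents against TGF-beta1 moved from 0 to 2 with median scaling, 3 with only the groups compared and 5 with array weights, and stayed at 0 with 1 array left out. The difference between 48 h and 18 h moved from 2 to 1 with no filter, with 1 probe per gene and with only the groups compared, to 5 with array weights, and to between 0 and 3 with 1 array left out. The controls moved from 0 to 2 with array weights and 0 to 1 with 1 array left out. The interaction stayed at 0 histone probes in all 23 alternatives. With 1 probe per gene the called H2AFY probe, ILMN_1746171, is itself left out, since the brighter ILMN_2373495 stands for that gene. The cause of the other moves was not tested.

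Over all probes, calls for C-peptide at 48 h were 1117 and ranged from 377 to 3954 over the alternatives, at 18 h 402 and 0 to 2307, for both agents against TGF-beta1 516 and 93 to 2094, for the difference between times 1533 and 245 to 4235, and for the controls 1 and 0 to 3572. Of 1015 recomputed single-probe values (61 results), 940 kept their direction and side of the threshold, 52 lost a call, 11 gained one and 12 changed sign. No sign change touched a call. With TGF-beta1 alone H3F3A ILMN_2106331 read -0.075 with median scaling, H3F3A ILMN_1656082 ranged from -0.031 to 0.011 with 1 array left out, and HIST1H2AC from -0.0092 to 0.16. With C-peptide present, H2AFY ILMN_1674034 read -0.019 with array weights and ranged from -0.047 to 0.057 with 1 array left out, H2AFY ILMN_1746171 from -0.076 to 0.13 and H3F3A ILMN_1656082 from -0.011 to 0.091. Pairing by replicate number was looked at in the deviations of each probe from its group mean. In these deviations, 45 same-number pairs across groups had correlations of -0.33 to 0.26, with a median of 0.01, and 11 were over 0.1. Pairs of different numbers were not computed for comparison. With the replicate block 20 and 21 histone probes were called in the TGF-beta1 comparisons.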
